A study of Mus musculus with 18 samples.

Results

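H3K27ac was mapped by ChIP-seq in liver of mice with and without a hepatocyte deletion of Ctcf, and the 6 peak lists of that mark are described here, out of 18 libraries in the series. The 3 WT libraries (WT 1, WT 2 and WT 4) came from CTCF fl/fl mice that were Albcre-, and the 3 KO libraries (KO 2, KO 3 and KO 4) from CTCF fl/fl mice that were Albcre+. Both genotypes therefore carried the floxed alleles, and all were C57BL/6 mice aged 8 weeks with no treatment named in the labels and no sex given for these libraries. Alb-Cre is driven by the albumin promoter, which acts in hepatocytes, and whether the other cells of the same liver keep Ctcf was not tested. Peaks of the 6 lists were joined wherever they overlapped by 1 bp or more, which gave 57360 regions, and the members are the 22736 regions (39.64%) in which every library had a peak. At each member the highest fold enrichment of a library's peaks (signal over background, the authors' value) and the base pairs its peaks covered were each turned into a percentile rank from 0 to 100 within that library. Ranks were used because KO 4 had the longest list.

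H3K27ac is the acetylation of lysine 27 on histone H3 by p300 and CBP, and it marks promoters and enhancers in use. CTCF is a zinc-finger protein that holds cohesin loops at its binding sites and so limits which enhancers can reach which promoters. In liver, H3K27ac is dense at genes of secreted proteins, bile acid synthesis and detoxification, whose enhancers are bound by HNF4A, FOXA, CEBP and nuclear receptors such as PPARs.

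The promoters that the results turn on are shown first, as the 250 bases before the annotated start site in RefSeq on GRCm38.p6 (mm10), 5' to 3' on the gene's own strand, which is minus for all 6. Slco1a1 and Mup11 are male-biased genes whose promoters lie in member regions that ranked lower in KO, in fold for Slco1a1 and in covered length alone for Mup11, and Mup7, a copy of Mup11, had peaks in every WT list and in no KO list. The promoters of C1s1 (lower in KO), Commd4 and Tlr6 (both higher in KO) also lie in members named below. Capitals mark matches on either strand to 4 short motifs. The TATA box was searched as TATAAA, and the core motif of nuclear receptors such as PPARs as AGGTCA. The CCAAT box was searched by its name, and the element bound by STAT factors as TTCNNNGAA, where N is any base.
Slco1a1, chr6:141946963-141947212: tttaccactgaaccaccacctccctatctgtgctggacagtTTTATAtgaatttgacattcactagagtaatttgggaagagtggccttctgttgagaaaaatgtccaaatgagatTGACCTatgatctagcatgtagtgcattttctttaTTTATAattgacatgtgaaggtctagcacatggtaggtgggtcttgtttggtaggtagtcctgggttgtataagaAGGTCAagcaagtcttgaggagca
Mup11, chr4:60662396-60662645: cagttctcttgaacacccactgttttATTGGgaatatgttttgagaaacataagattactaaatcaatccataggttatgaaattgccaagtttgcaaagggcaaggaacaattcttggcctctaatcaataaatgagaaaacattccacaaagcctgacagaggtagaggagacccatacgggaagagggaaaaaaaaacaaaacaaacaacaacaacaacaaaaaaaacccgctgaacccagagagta
Mup7, chr4:60070476-60070725: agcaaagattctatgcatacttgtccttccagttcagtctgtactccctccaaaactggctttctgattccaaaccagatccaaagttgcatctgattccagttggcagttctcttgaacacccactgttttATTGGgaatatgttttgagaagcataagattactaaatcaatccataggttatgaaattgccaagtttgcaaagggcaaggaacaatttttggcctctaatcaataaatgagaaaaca
C1s1, chr6:124542360-124542609: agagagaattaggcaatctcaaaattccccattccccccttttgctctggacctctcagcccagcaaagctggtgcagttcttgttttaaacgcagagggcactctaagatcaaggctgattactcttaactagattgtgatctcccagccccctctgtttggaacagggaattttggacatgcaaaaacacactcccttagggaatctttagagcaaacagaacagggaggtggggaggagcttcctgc
Commd4, chr9:57158300-57158549: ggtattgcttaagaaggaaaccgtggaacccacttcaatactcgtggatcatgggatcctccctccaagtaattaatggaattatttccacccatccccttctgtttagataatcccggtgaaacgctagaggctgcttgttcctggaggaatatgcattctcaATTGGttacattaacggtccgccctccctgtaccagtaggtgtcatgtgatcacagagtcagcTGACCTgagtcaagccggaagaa
Tlr6, chr5:64960049-64960298: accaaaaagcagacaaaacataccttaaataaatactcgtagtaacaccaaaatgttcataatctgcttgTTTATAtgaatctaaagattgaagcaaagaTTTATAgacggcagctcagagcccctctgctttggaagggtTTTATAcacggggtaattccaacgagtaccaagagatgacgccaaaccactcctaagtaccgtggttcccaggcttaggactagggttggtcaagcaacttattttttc
The Slco1a1 window held 4 matches, TATA boxes beginning 209 and 99 bases before the start and nuclear receptor motifs beginning 134 and 24 bases before it. The Commd4 window held a nuclear receptor motif and a CCAAT box, the Tlr6 window 3 TATA boxes and the C1s1 window none. Among 32851 RefSeq promoters of the same length, 12.4% held the TATA box, 14% the nuclear receptor motif, 33.8% the CCAAT box and 7.02% the STAT element, and a match is a description of letters only. The windows of Mup11 and Mup7 matched at 142 of 144 aligned bases (98.6%) once shifted against each other by 106 bases. How reads that fit several such copies were placed is not given in the sources used here, so values at Mup, Hsd3b and Cyp2b genes, which belong to families of near-identical copies, are uncertain as to which copy they come from.

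The lists held 37312 (WT 1), 40545 (WT 2), 34324 (WT 4), 35480 (KO 2), 39092 (KO 3) and 51311 peaks (KO 4), and the number of reads behind them is unknown. KO 4 covered 125.7 Mb of the genome against 78.2 to 91.5 Mb in the other 5, and 78.3% of its covered length lay in the members against 88.3% to 93.3%. All 26 hepatocyte identity genes, Alb, Apoa2 and Hnf4a among them, had peaks within 5 kb in all 6 libraries. The growth protocol given with these libraries describes neural stem cells, although the tissue label is liver. Of 13 neural stem cell genes, 7 had no H3K27ac peak within 5 kb in any library, Sox1, Sox2, Pax6 and Olig2 among them. Of the rest, 5 had a member region and 1 had peaks but no member region. Peaks at Ctcf do not test the deletion of its exons, and at its promoter KO libraries ranked at 75.3, 82.0 and 92.3 for fold against 59.6, 77.4 and 80.8 in WT (KO minus WT 10.7, SE 6.44, limma adjusted p = 0.575).

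The pattern of H3K27ac over the shared regions was alike in the genotypes. Across the 22736 regions the Spearman correlation of fold ranks averaged 0.884 between WT libraries (3 pairs, 0.859 to 0.899), 0.858 between KO libraries (3 pairs, 0.853 to 0.867) and 0.847 across genotypes (9 pairs, 0.823 to 0.886). The excess within genotypes was 0.0244, with a two-sided exact permutation p = 0.1 over the 10 ways to split 6 libraries into 3 and 3, the smallest p that design allows. For covered length the excess was 0.0265, at the same exact permutation p = 0.1. The median region had a within-genotype SD of 8.62 rank points for fold and 7.58 for covered length, and 90% of regions lay between -17.9 and 17.1 points (KO minus WT) for fold.

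**Figure D1:**
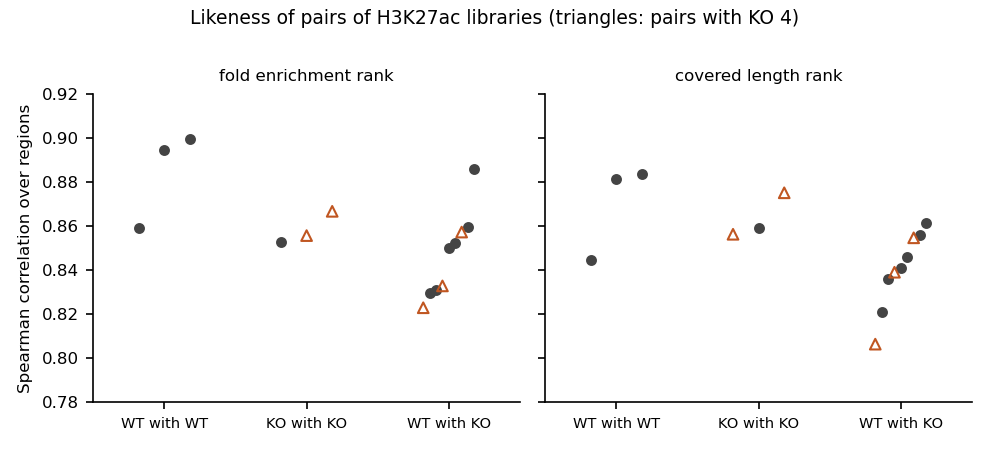
Spearman correlation over 22736 regions for each of the 15 pairs of H3K27ac libraries, for the rank of fold enrichment (left) and of covered length (right); each point is 1 pair and triangles are pairs that include KO 4. Pairs within WT average 0.884 for fold and pairs across genotypes 0.847, with ranges that overlap.

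No region passed the test in either direction. With limma and Benjamini-Hochberg adjustment over all 22736 regions, 0.0% were called higher and 0.0% lower at an adjusted p under 0.05, for fold (smallest adjusted p = 0.189) and for covered length (smallest adjusted p = 0.0912) alike. At an unadjusted p under 0.05, 1144 regions (5.03%) ranked higher and 1290 (5.67%) lower in KO for fold, and 1235 (5.43%) and 1169 (5.14%) for covered length. The regions named next are therefore those whose 3 KO libraries all lay beyond the 3 WT libraries, ordered by limma's unadjusted p, 10 in each direction for each measure. For fold 1939 regions (8.53%) had all KO ranks above all WT ranks and 1889 (8.31%) all below, and for covered length 1576 (6.93%) and 2079 (9.14%). Nothing in the labels says that the libraries of a genotype came from separate mice, so p-values measure the spread between these 6 samples. Outside the members, 620 of the 57360 regions (1.08%) were called in all 3 KO and no WT libraries. In all 3 WT and no KO libraries 99 (0.173%) were called. KO 4 had a peak in 85.0% of the 57360 regions, against 51.6% to 60.7% in the other libraries. Its longer list leaves fewer regions that no KO library called, so the counts cannot be set against each other. Both kinds were weak, with median folds of 2.89 and 3.06 against 3.92 to 4.20 for the members by library.

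Of the 10 regions named for lower H3K27ac fold in KO, 3 were nearest to Hsd3b or Mup genes. A region at chr3:98677334-98679737, 31369 bp from Hsd3b2 and within 60 kb of Hsd3b5, a steroid-converting enzyme of male liver, ranked at 73.4, 65.1 and 69.3 in the WT libraries and at 10.2, 0.534 and 17.7 in KO (KO minus WT -59.8, SE 8.78, adjusted p = 0.189 by limma). Its fold enrichment was 5.03, 4.87 and 4.93 in WT against 3.14, 2.74 and 3.15 in KO, a separation that the naming rule required. The 2 other members within 60 kb of Hsd3b5 also had lower mean fold ranks in KO. A pair of regions at Mup12, which encodes a major urinary protein that binds pheromones, stood out in the same way. The region at chr4:60739564-60741587 within Mup12 ranked at 47.1, 53.5 and 64.0 in WT, compared with 11.1, 5.91 and 0.754 in KO. The second, 1172 bp outside the gene at chr4:60742589-60743640, ranked at 53.4, 71.4 and 94.9 against 14.5, 4.24 and 8.61, with WT itself widely spread. No stretch of at least 200 bp in this second region was covered in all 6 libraries, so its joined peaks may lie at different places. Of the 7 members within 60 kb of Mup12, 6, the named pair included, had a lower mean fold rank in KO. Over all members the median KO minus WT difference in fold rank was 0.147, so lower and higher mean ranks were about equally common. The 60 kb windows here and below were drawn around genes chosen after their values were seen.

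C1s1 codes for complement protease C1s, which liver secretes, and its promoter is printed above. The region over it, chr6:124540812-124544620, ranked at 67.1, 74.0 and 79.9 in WT versus 29.7, 26.4 and 30.8 in KO (-44.6, SE 8.28, limma adjusted p = 0.338), and it held both a CTCF site that the KO lists lacked and one that they kept. Adgrv1 codes for a very large adhesion receptor, and the region inside it, chr13:81314258-81318382, also held a CTCF site found in both WT and neither KO list. That region ranked at 82.2, 78.6 and 75.5 in WT against 32.7, 16.0 and 33.2 in KO. Spsb4, an adaptor of ubiquitin ligases, had a region inside the gene (chr9:96980501-96983997) at 55.6, 47.4 and 43.4 in WT against 1.44, 0.552 and 2.35 in KO, near the bottom of the KO lists. No stretch of at least 200 bp in that region was covered in all 6 libraries, so the joined peaks may lie at different places. All 3 members within 60 kb of Spsb4 had lower mean fold ranks in KO.

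At Cdc42ep4, an effector of the small GTPase CDC42, the result depended on how peaks were joined. The region of 32399 bp (chr11:113721011-113753409) held a lost CTCF site and ranked at 98.7, 98.6 and 98.9 in the WT libraries and at 78.8, 74.1 and 80.2 in KO (-21.0, SE 2.84, limma adjusted p = 0.189). WT libraries split it into 2 or 3 peaks, of which the strongest had a fold of 7.72, 8.15 and 8.47 over 8765, 9494 and 5999 bp, while each KO library had a single peak of 30798 to 31686 bp with a fold of 4.75 to 5.35. Measured instead on the longest stretch of it covered in all 6 libraries, the difference was 14.6 rank points higher in KO (limma adjusted p = 0.467). That value leaves out the rest of the region, so it need not describe the strongest WT peak. With the length-weighted mean of the fold over the whole region the difference was -1.68 (limma adjusted p = 0.904). Of the 7 members within 60 kb of Cdc42ep4, 2, the 32399 bp region included, had a lower mean fold rank in KO. Stard13, a GTPase-activating protein, had a region within the gene (chr5:151404313-151413361) at 98.9, 97.6 and 97.6 in WT, compared with 81.3, 85.0 and 83.7 in KO, where every library had 1 peak. The remaining regions of the 10 were near Fam222a, 13002 bp away, at 62.2, 49.5 and 58.5 in WT versus 3.42, 1.55 and 3.26 in KO, and near Chrna1, a muscle acetylcholine receptor subunit, 4480 bp away, at 61.3, 56.1 and 54.9 against 10.2, 4.50 and 9.07.

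The clearest region with higher H3K27ac fold in KO was inside Cd36, the fatty acid translocase that brings fatty acids into cells and a classic PPARg target in liver. At chr5:17875485-17878953 the 3 WT libraries ranked at 59.7, 58.5 and 62.5 and the KO libraries at 90.4, 89.4 and 92.1 (30.4, SE 4.57, limma adjusted p = 0.189). The fold enrichments were 4.43, 4.57 and 4.59 in WT against 6.26, 5.67 and 6.22 in KO; that the genotypes do not overlap follows from the rule by which regions were named. This region held a PPARg site called in all 4 PPARg libraries. Of the 5 members within 60 kb of Cd36, this region and 2 others had all KO fold ranks above all WT ones (8.53% of all members did). The neighbouring region at chr5:17879173-17883809 ranked at 7.93, 15.5 and 3.25 in the WT libraries and at 55.9, 50.0 and 25.1 in KO.

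The 9 other regions named as higher in KO are given by their nearest gene. The region 20562 bp from Cxcr4, the receptor of the chemokine CXCL12, ranked at 4.98, 7.33 and 13.0 in WT, compared with 72.6, 43.6 and 52.4 in KO (47.8, SE 9.36, limma adjusted p = 0.338). The region 18959 bp from Wwtr1, which encodes the Hippo pathway coactivator TAZ, ranked at 10.7, 23.0 and 19.1 against 66.8, 57.5 and 67.1. At the promoter of Tlr6, a receptor for bacterial lipopeptides, WT libraries ranked at 0.376, 17.4 and 2.77 and KO libraries at 59.3, 39.0 and 53.4, and the difference of 43.7 points was 24.7 with the length-weighted mean of the fold. The promoter of Commd4, a copper metabolism domain protein, ranked at 1.55, 0.895 and 1.99 in WT versus 36.1, 30.0 and 37.4 in KO. Neither the Tlr6 nor the Commd4 region had a stretch of at least 200 bp covered in all 6 libraries, so their joined peaks may lie at different places. Within Arid1a, a subunit of the BAF remodelling complex, WT ranks were 0.794, 5.33 and 1.03 and KO ranks 42.0, 42.3 and 29.8. The promoter shared by Nudt5 and Cdc123 was high in both genotypes, at 81.9, 79.97 and 85.0 in WT against 94.2, 97.8 and 96.6 in KO. Its covered length went the other way, with ranks of 27.8, 36.3 and 28.9 in WT against 21.8, 16.2 and 15.2 in KO. The other 3 of the 10 were near Calml3, Rhobtb1 and Zfp747, with differences of 36.3, 28.6 and 42.6 rank points.

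**Figure D2:**
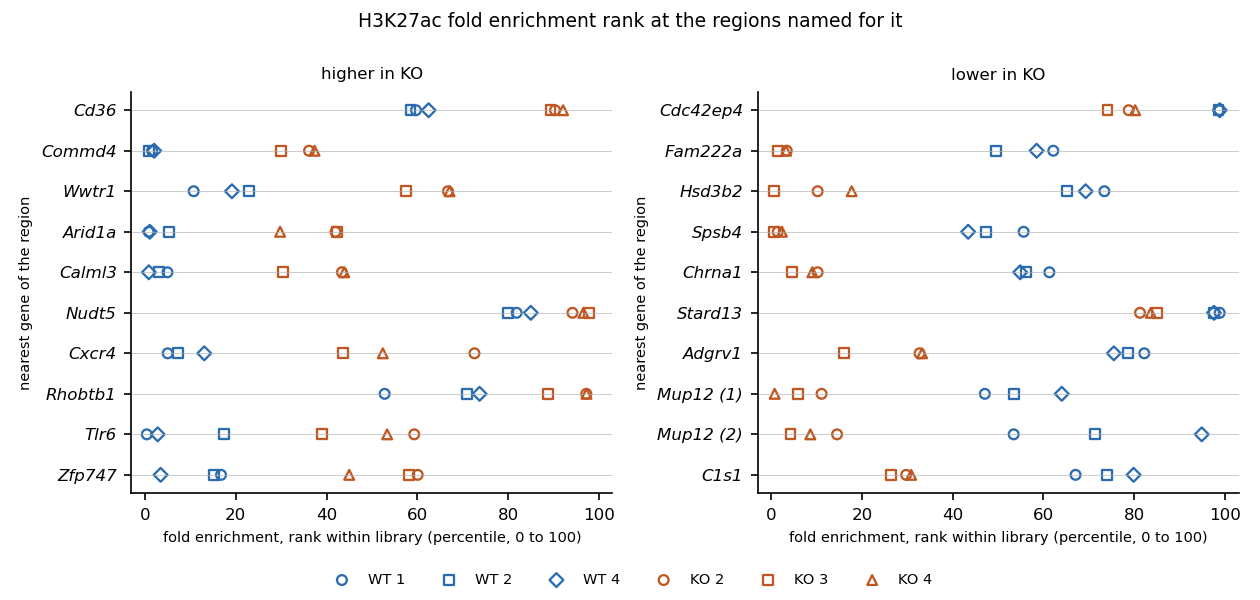
Percentile rank of fold enrichment in each of the 6 libraries (x axis, 0 to 100) at the 10 regions named as higher (left) and the 10 named as lower in KO (right); each marker is 1 library, blue for WT and orange for KO. The groups do not overlap in any row, since that was the rule, and at Cd36 WT sits between 58.5 and 62.5 and KO between 89.4 and 92.1.

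The largest difference in the rank of covered length among all members was at Elovl3. Elovl3 makes very long-chain fatty acids and is a male-biased gene of liver. Peaks over the gene and its neighbour Pitx3 (chr19:46130722-46136752) covered 5533, 4939 and 5403 bp in the WT libraries and 1132, 535 and 1112 bp in KO, and the ranks were 85.1, 80.1 and 85.7 against 20.6, 2.56 and 4.96 (-74.3, SE 8.05, limma adjusted p = 0.0912). The fold ranks there, at 25.9, 32.8 and 50.5 in WT, compared with 10.4, 23.5 and 2.79 in KO, were lower as well. Of the 8 members within 60 kb of Elovl3, the named one included, 7 had a lower mean fold rank in KO. Of these 8, 3 were below WT in every KO library for fold (8.31% of all members were) and 4 were shorter by rank in every KO library (9.14% of all members).

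The Hsd3b and Mup loci recurred among the shorter regions. Over Hsd3b5 itself (chr3:98628658-98636710) peaks covered 7859, 8027 and 6559 bp in WT versus 3820, 3506 and 4758 bp in KO (-18.6 rank points, SE 2.31, limma adjusted p = 0.111). The region 21674 bp from Hsd3b2 was covered over 3008, 3569 and 2317 bp in WT but 216, 917 and 275 bp in KO. Around Mup11 (chr4:60656886-60682593) the covered length was 12652, 20177 and 25708 bp in WT against 7135, 8333 and 10562 bp in KO, with a wide spread in WT. Rgn, which encodes regucalcin, a calcium-binding protein and gluconolactonase of hepatocytes, was covered over 5482, 7346 and 6763 bp in the WT libraries and 3476, 3512 and 4458 bp in KO. Enpp2, which encodes the secreted lysophospholipase autotaxin, had 7491, 7726 and 6635 bp against 4893, 5204 and 6327 bp, the closest approach of the genotypes in this set. The Spsb4 region named above was short in KO too, at 894, 275 and 784 bp against 3081, 3497 and 2944 bp, and the other 3 regions were near Tiam2, Gprin3 and Dkk3.

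Several regions that were short in WT were covered over much greater length in KO. At the region 87254 bp from Irf2bp2, which encodes a transcriptional corepressor, peaks covered 540, 938 and 217 bp in WT, compared with 6696, 3742 and 4679 bp in KO (73.5 rank points, SE 8.23, limma adjusted p = 0.0912). Within St3gal2, a sialyltransferase, they covered 724, 677 and 754 bp against 3483, 3555 and 4195 bp. The promoter region of Gpr39, a zinc-sensing receptor, was covered over 771, 730 and 762 bp in WT but 4155, 3453 and 3596 bp in KO, while its fold ranks overlapped between genotypes, at 74.2, 56.2 and 19.5 in WT and 20.3, 21.6 and 26.4 in KO. Around Tnip1, an inhibitor of NF-kB signalling, a long region was covered over 4808, 5106 and 3711 bp in WT but 9515, 9962 and 10238 bp in KO. The region 48014 bp from Hs1bp3 covered 4000, 4342 and 4367 bp in WT versus 8125, 8934 and 10701 bp in KO, and the remaining 5 were near Smtn, Smg6, Eya3, Ahdc1 and Magi1. Over all members the 2 measures' differences were only loosely related (Spearman 0.202 across 22736 regions that share libraries), and 238 regions (1.05%) were above and 395 (1.74%) below in both.

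**Figure D3:**
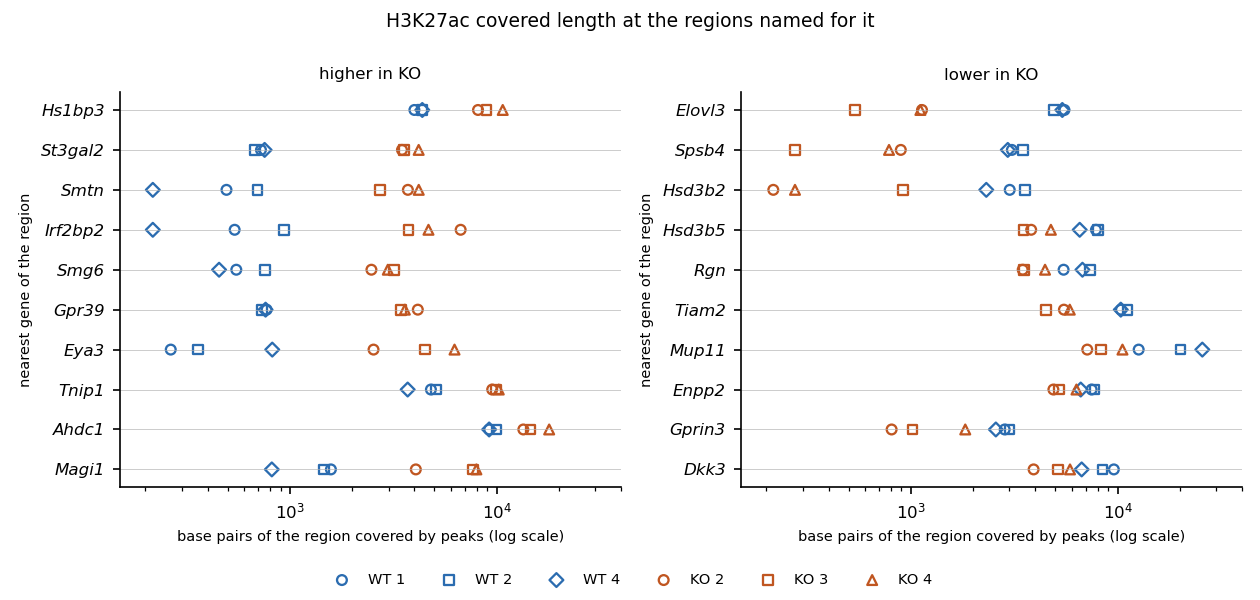
Base pairs covered by peaks in each library (x axis, log scale) at the 10 regions longer (left) and the 10 shorter in KO (right) by rank; each marker is 1 library, blue for WT and orange for KO. Elovl3 sits at 4939 to 5533 bp in WT against 535 to 1132 bp in KO.

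Gene lists were read with 1 member region per gene, the one with the highest mean rank within 5 kb of the gene, which can also serve a neighbour. On this basis 12528 of 21887 protein-coding genes had a member region, 1128 (9.0%) had all KO fold ranks above WT and 893 (7.13%) all below, and the median difference was 0.64. For covered length the shares were 5.43% above and 9.16% below. The lists were chosen with earlier results of these data known, so their counts are descriptions and not separate tests.

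Among hepatocyte identity genes 0 of 26 ranked above and 8 below WT in every KO library for fold, with a median of -4.47 rank points. Without KO 4 the median was -2.56 and 8 were below. With only 2 KO libraries 12.7% of all members were below, a share counted by region and not by gene. Nr0b2, the receptor SHP that restrains bile acid synthesis, ranked at 89.2, 94.3 and 94.5 in the WT libraries and at 83.7, 73.4 and 60.4 in KO. Ttr, the thyroxine carrier transthyretin, ranked at 85.8, 88.5 and 85.9 against 78.1, 68.8 and 68.0. Also below were Serpina1a, Serpina1c, Foxa3 and the fibrinogen genes Fga and Fgb, which share a region. These regions stayed among the stronger ones in both genotypes, and their covered lengths mostly overlapped. Alb ranked at 48.1, 64.3 and 74.2 in WT, compared with 69.7, 70.2 and 70.5 in KO for fold. In whole liver, fewer hepatocytes and less mark per hepatocyte cannot be told apart.

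Of 24 male-biased genes 17 had a member region, of which 0 ranked above and 4 below WT in every KO library for fold and 7 were shorter in every KO library by rank. The median fold difference was -8.46 points, and -5.40 without KO 4. The 4 were Elovl3, Mup12, Slco1a1 and Ugt2b1, and the regions at Elovl3 and Mup12 were already named above from the same ranks. Slco1a1, an organic anion transporter of male liver, ranked at 66.7, 60.8 and 63.2 in WT versus 25.7, 21.96 and 18.4 in KO over its printed promoter. Its covered length was 6686, 8941 and 8181 bp in WT against 5538, 1384 and 5246 bp in KO, and all 5 members within 60 kb had lower mean fold ranks in KO. Cyp7b1, an oxysterol hydroxylase, differed by measure, with peaks over 6523, 6681 and 6380 bp in WT but 3214, 4446 and 3577 bp in KO and a mean fold rank 10.3 points higher in KO. Mup7, not a member, had 2322, 3071 and 6017 bp of peaks within 5 kb of the gene in WT and no listed peak in any KO library. Among the 99 regions found in WT alone, the one over the printed Mup7 promoter had the third highest mean fold, at 3.47, 3.38 and 3.86.

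Of 30 female-biased genes 16 had a member region, and 3 ranked above and 1 below WT in every KO library, with a median of 6.76 points. With 1 library left out the median ran from 4.59 (without WT 4) to 11.2 (without WT 2), and it was 10.8 without KO 4. Cyp2b9, a cytochrome P450 of female liver, ranked at 39.1, 59.1 and 40.6 in the WT libraries and 62.4, 80.9 and 69.6 in KO, and its peaks covered 998, 1401 and 1486 bp against 2126, 2528 and 2834 bp. Cyp2b13, its close copy, ranked at 54.2, 65.5 and 48.9 against 83.3, 78.2 and 69.1. Tox, a nuclear HMG-box protein, ranked at 76.4, 70.5 and 71.5 against 85.6, 88.7 and 79.8, and the gene below was Atp6v0d2. Cyp39a1, not a member, had 1336, 1670 and 802 bp of peaks within 5 kb in WT and 4351, 5700 and 7557 bp in KO. Sex was not given for these libraries, and all 4 Y-linked genes examined (Ddx3y, Eif2s3y, Kdm5d and Uty) had peaks in all 6. In the growth hormone and STAT5 list, the pathway that sets sex bias in liver, 15 of 15 genes had a member, 0 were above and 1 (Socs1) below, with a median of -5.84 that ran from -7.56 to -3.67 with 1 library left out and was -3.04 with the length-weighted mean of the fold.

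Lipid genes were read pathway by pathway. For fatty acid and triglyceride synthesis 2 of 22 were above and 5 below. Acsl1, which activates long-chain fatty acids, ranked at 88.0, 87.9 and 84.3 in WT, compared with 70.6, 83.3 and 50.5 in KO, and Srebf1, the regulator of lipogenic genes, at 80.1, 68.2 and 60.8 against 47.9, 59.99 and 38.0. Dgat1, which makes triglyceride, ranked at 39.4, 45.9 and 54.5 in WT versus 61.6, 66.1 and 71.0 in KO, so members of this list lay in both directions. Of 24 PPAR target and lipid droplet genes with a member, 2 were above and 0 below, Cd36 and Pdk4, the kinase that turns off pyruvate dehydrogenase, at 72.1, 76.4 and 73.6 in WT against 88.8, 94.3 and 83.9 in KO. For fatty acid oxidation and ketogenesis 1 of 27 was above and 1 below, with a median of 0.35, near the 0.64 of all genes. Pparg itself ranked at 60.02, 61.5 and 55.0 in the WT libraries and 61.0, 57.7 and 57.4 in KO (limma adjusted p = 0.998).

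For bile acid and cholesterol genes 0 of 23 were above and 4 below in fold, and 8 were shorter in every KO library by rank. Abcb11, the bile salt export pump, ranked at 90.7, 94.1 and 87.1 in WT, compared with 81.3, 68.3 and 77.6 in KO, and Slc10a1, the bile acid uptake transporter NTCP, at 94.1, 97.1 and 96.6 against 89.6, 93.6 and 80.6. Lss, lanosterol synthase, and Nr0b2 were the other 2. For gluconeogenesis, glycogen and the urea cycle 0 of 21 were above and 3 below, and 6 were shorter. Ppp1r3c, which targets protein phosphatase 1 to glycogen, ranked at 83.3, 88.2 and 72.0 in WT versus 58.9, 65.2 and 41.2 in KO. For clock genes 0 of 19 were above and 4 below, led by Nfil3, a repressor of D-box genes, at 89.7, 91.0 and 85.0 against 71.1, 67.7 and 58.4. For xenobiotic metabolism 1 of 28 was above (Nqo1) and 2 below. For immediate early and stress genes 2 of 27 were above and 1 below, and Hmox1, heme oxygenase, ranked at 52.2, 70.6 and 63.1 in WT against 90.2, 72.5 and 88.9 in KO. For housekeeping genes 1 of 20 was above (Polr2a) and 0 below, for CTCF and cohesin genes 1 of 17 (Stag2) and 0, for the cell cycle 2 of 12 (Cdk1 and Aurkb) and 0, and for fetal liver genes 0 of 3 and 1 (Afp).

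**Figure D4:**
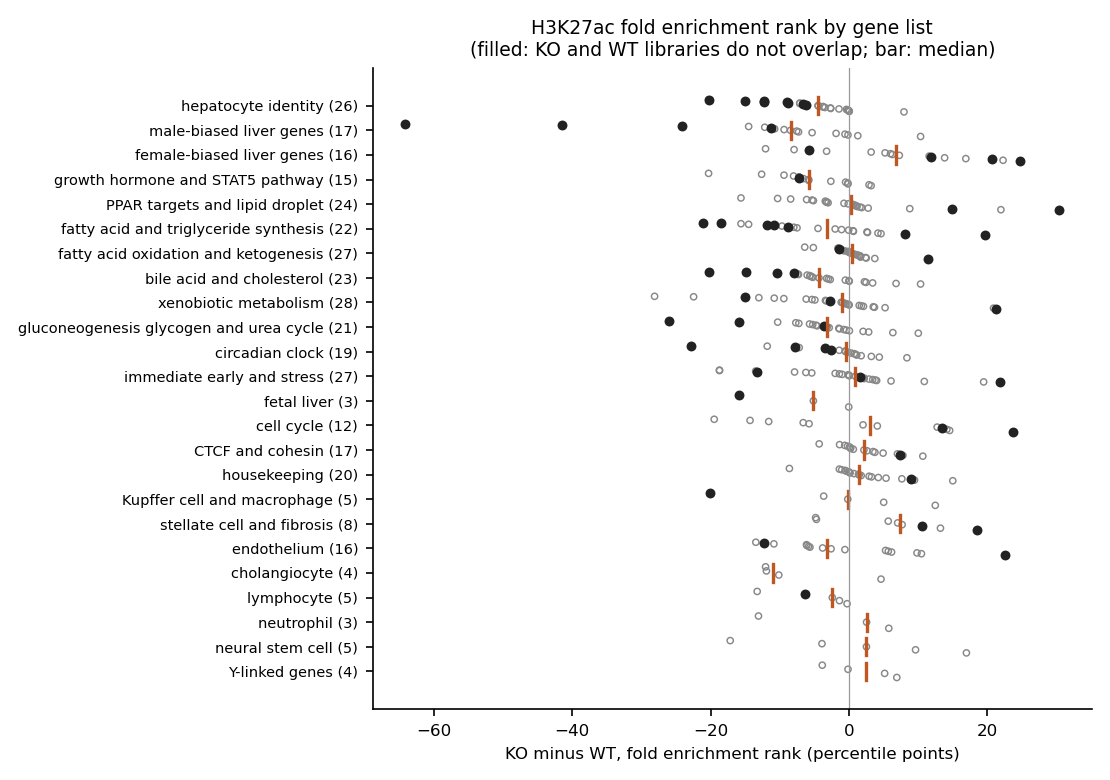
KO minus WT difference in fold enrichment rank (x axis, percentile points) for each gene of 24 lists that had a member region (number in brackets); points are genes, filled where the KO and WT libraries do not overlap, and the bar is the list's median. Medians lie at -8.46 for male-biased, 6.76 for female-biased and -4.47 for hepatocyte identity genes.

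Markers of the other liver cells were read in the same way. Kupffer cell and macrophage genes had a member for 5 of 17, with 0 above and 1 below (Itgam), and their summed peak length within 5 kb was 18.5, 29.5 and 45.4 kb in WT and 38.4, 23.3 and 58.7 kb in KO. The complement genes C1qa, C1qb and C1qc of this list had most coverage in WT 4, KO 2 and KO 4, and Vsig4 and Marco had none in any library. Stellate cell and fibrosis genes had a member for 8 of 15, 2 above (Lrat and Hgf) and 0 below, with a median of 7.35 for fold. Their summed lengths were 62.7, 54.0 and 41.0 kb in WT and 67.1, 75.8 and 122.2 kb in KO, so that every KO library exceeded every WT library. The summed lengths in this paragraph are not scaled to the length of a list, and KO 4 had the longest. By rank, the median difference in covered length of the stellate genes was 7.90 points, and 1.22 without KO 4. Lrat, which stores vitamin A in stellate cells, ranked at 9.397, 9.41 and 8.47 in the WT libraries and 23.5, 37.2 and 21.9 in KO. Endothelial genes all had members (16 of 16), with 1 above (Flt4) and 1 below (Tek) and 216.9, 248.6 and 216.3 kb against 206.5, 238.6 and 339.3 kb. Cholangiocyte genes had a member for 4 of 12, with 24.0, 24.8 and 19.8 kb in WT and 32.0, 36.1 and 50.8 kb in KO, while the defining keratins Krt7 and Krt19, Epcam and Cftr had no peak in any library. Lymphocyte genes had 5 of 17, with 1 below (Cd3g, beside other genes), neutrophil genes 3 of 10 and neural stem cell genes 5 of 13, the last 2 with none above or below. The part of these cells in the values of the hepatocyte lists was not tested.

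Regions could also be grouped by what the series' other peak lists placed in them. Regions with a PPARg site called in all 4 PPARg libraries (6776) had a median fold difference of -2.23 rank points, with 5.06% above and 13.3% below, whereas regions with no PPARg site (9907) had 2.76, with 11.7% above and 3.74% below; over all members these shares were 8.53% and 8.31%. KO 4 carried much of the size. The median rank of the shared PPARg class was 69.8, 71.0 and 71.7 in WT, compared with 70.0, 69.9 and 63.2 in KO, and without KO 4 the medians were -0.71 and 1.36. Regions with a shared PPARg site were stronger in WT (median fold rank 70.2 against 32.4 without a site), so the comparison was repeated within 4 bins of equal size by the mean fold rank over all 6 libraries, where the shared class lay between -4.16 and -1.55 and the class without a site between 1.58 and 4.00. Regions with a PPARg site in both KO and neither WT library, and no shared site (1906), had a median of -0.12 with 8.45% above and 9.60% below, close to all members, and those with a WT-only site (294) had -2.54.

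H3K4me3, the mark of active promoters, and H3K27me3, the mark laid down by Polycomb, were each mapped in 1 library per genotype. Where H3K4me3 was called in WT only (503 regions) the median H3K27ac fold difference was -3.11, with 3.98% above and 19.1% below, and where it was called in KO only (294) it was 2.81, with 13.6% above and 3.74% below. Without KO 4 these medians were -2.34 and 2.37. The H3K4me3 libraries carry the label numbers of WT 2 and KO 4, and whether they share animals with those is not stated. Where H3K27me3 was called in either genotype (238) the median was 4.37, with 19.7% above and 2.101% below, and 3.03 without KO 4; these were weak regions, with a median WT fold rank of 22.4.

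Regions were also grouped by the CTCF lists. Regions with a CTCF site in both WT and neither KO library (483) had a median of -1.70 (-1.68 without KO 4, -2.605 without KO 2), with 5.80% above and 14.5% below for fold, and 7.04% above and 9.11% below for covered length, close to the 6.93% and 9.14% of all members. Regions with a CTCF site kept in all 4 libraries (2952) had a median of 0.02 with 8.27% above and 9.08% below. The per-library median ranks of the lost class, 67.7, 67.4 and 68.8 in WT versus 68.3, 67.3 and 64.4 in KO, overlapped between genotypes. Regions within 1 kb of a start site (8819) had a median of 0.78 and those farther away (13917) -0.41; without KO 4 these were 0.29 and 0.01.

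**Figure D5:**
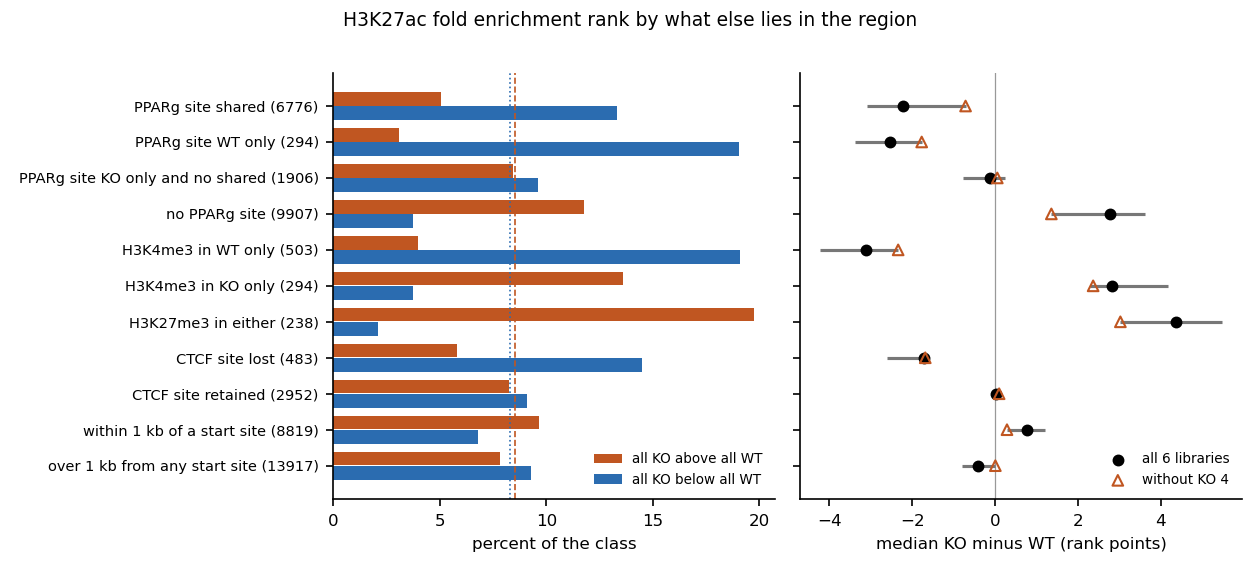
Left, percent of the regions of each class (number in brackets) in which all KO fold ranks lay above (orange) or below (blue) all WT ranks, with dashed and dotted lines at the values of all members, 8.53% above and 8.31% below. Right, the class median of KO minus WT in rank points for all 6 libraries (points), its range when each library is left out (lines) and its value without KO 4 (triangles), which is -0.71 for shared PPARg sites.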

How the data were processed

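ChIP-seq of H3K27ac (antibody ab4729, ligation libraries) was deposited as 1 broad peak list per library, 3 WT and 3 KO. Per the submitters' processing notes the tools were MACS2 2.1.2, BWA 0.7.12, deepTools 3.1.3 and Picard 1.77, with build mm10; the control used for peak calling is not given in the sources used here. Each deposited peak carries the fold enrichment over background that the authors' peak caller computed, a ratio, and the authors' −log10 q, whose lowest value was near 1. Neither was normalized between libraries by any step the labels record, and both depend on a depth that peak lists do not hold.

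Only the autosomes, X and Y were used. The percentile ranks of the 22736 shared regions went into limma 3.58.1 (R 4.3.3; mean-variance trend, KO against WT, Benjamini-Hochberg adjusted p under 0.05), and whole-library measures were compared with exact permutation tests (scipy 1.17.1, Python 3.11.15). The fit was also run on simulated data with known changes, in which all regions were given the same spread. The real spread differs between regions, so that run does not measure the power or error of the fit here. Regions were named by a rule, 10 per measure and direction among those past the test, filled with regions whose genotypes did not overlap by the smallest p. Slco1a1, the loci within 60 kb, the motif windows and the examples within lists were chosen after their values were seen, and members and lists were chosen with earlier results of these data known. A region was given the gene it overlapped most with 5 kb either side, or else the nearest. Of 470 entries in 24 lists 466 matched a symbol of the RefSeq annotation (GRCm38.p6). CTCF and PPARg sites come from 2 WT and 2 KO libraries each, and 1 WT PPARg library was made by ligation where the other 3 were tagmented. Sequences are from RefSeq; no entry was matched for Elovl3 or Mup12. Alternatives covered the q threshold, joining, scaling, filtering, variance trend, list length, replicate block and each library left out.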

Additional observations from a re-analysis of the deposited data

How the results depend on the processing

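No region passed an adjusted p of 0.05 for either measure in the fits as reported (limma, smallest adjusted p 0.189 for fold and 0.0912 for covered length), nor in any fit that left out 1 library, in which an arm of 2 is assumed to vary like the other. For fold, regions did pass with log2 values centred on the library median (1 higher, 14 lower in KO), on segments covered in all 6 libraries (5 higher, 5 lower) and with normal scores of the rank (0 higher, 2 lower). For covered length they passed with a −log10 q of at least 2 (1 higher, 1 lower) and without the variance trend (1 higher, 0 lower). At an unadjusted p under 0.05, leaving out 1 library gave 857 to 1320 regions higher and 887 to 1502 lower for fold, and 969 to 1282 and 864 to 1300 for covered length. The stricter −log10 q gave 725 higher and 736 lower for covered length, of 16136 tested. The replicate numbers 2 and 4 recur in both genotypes. Deviations of same-numbered libraries correlated at 0.034 and -0.062, and those of other-numbered libraries at -0.071 to 0.046. These few values cannot tell whether same-numbered libraries share an animal or a batch. With the replicate block 917 regions ranked higher and 1094 lower for fold and 1119 and 664 for covered length, unadjusted, and none passed.

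Of 516 alternative values for the 40 named results, 500 kept their direction and side of the threshold, 15 came to pass it and 1 turned. That was Cdc42ep4 on the longest of its segments covered in all 6 libraries (14.6), which is only a part of the named region. Named regions were picked because all KO ranks lay beyond all WT ranks, so leaving out 1 library cannot turn their direction. Dropping the variance trend or the weakest regions reuses the same differences. A region not tested under a setting gave no value there. At a −log10 q of at least 2 only 17 were counted as unchanged and 1 as coming to pass. Sizes still moved with the length-weighted mean of the fold, to -1.68 from -21.0 at Cdc42ep4 and to 24.7 from 43.7 at Tlr6. The class medians of fold that changed sign were near 0. For regions with a retained CTCF site they ran from -0.0902 to 0.1001 with 1 library left out, and the length-weighted mean gave -0.0066. For PPARg sites found in KO alone they ran from -0.764 to 0.2498, and for regions over 1 kb from a start site from -0.794 to 0.0088. The ratio of KO to WT peak numbers was 1.12 and ran from 0.997 without KO 4 to 1.21 without KO 2. Peak lists set a limit of their own, since a region missed in 1 library (3841 regions were called in 5 of 6, 1464 of them missed by WT 4) is not a member, and read depth is unknown.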
